A study of Mus musculus with 9 samples.

Results

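Livers of mice given sulodexide during thioacetamide injury were compared with livers of mice given vehicle, over all genes. The comparison set 6 of the 9 liver RNA libraries of the study against each other, chosen by their labelled treatment: 3 of TAA with sulodexide and 3 of TAA with vehicle. Mice of both groups, of the strain C57BL/6, drank water with thioacetamide (TAA) at 400 mg/L for 16 weeks. From week 13, after 12 weeks of TAA alone, sulodexide or its vehicle was given daily for 4 weeks and TAA was continued. The 3 other libraries, labelled control, entered the filter, the scaling and the estimate of scatter behind the p-values. Their values are given as levels only, because any fold against them that involves vehicle livers would share the vehicle libraries. The labels do not say whether controls received vehicle. They give no dose or route of sulodexide, no sex, no age and no hour of collection. Whether the libraries are from different mice is not stated either, so the p-values reflect the scatter among these libraries, which may be technical. In what follows a library is called a liver for short, without a claim that each is from a separate mouse.

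Sulodexide is a purified mixture of glycosaminoglycans, made of a low-molecular-weight heparin fraction and dermatan sulfate. The heparin chains bind antithrombin, dermatan sulfate binds heparin cofactor II, and the mixture is known to inhibit heparanase and to release lipases from the vessel wall. TAA is oxidised by hepatocytes to reactive products that kill them around the central veins. During repeated injury stellate cells turn into collagen-producing myofibroblasts, cells resembling bile duct cells expand in a ductular reaction, and monocytes enter from the blood. Bulk liver RNA holds all these cells, so that fewer cells of a type and less RNA per cell cannot be told apart.

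Of 34745 genes in the table, 13701 had enough counts to be tested, and 658 of them (4.80%) passed edgeR's quasi-likelihood test at a Benjamini-Hochberg adjusted p below 0.05. With sulodexide 191 genes rose (1.39%) and 467 fell (3.41%). The falls were larger than the rises: the median log2 change, sulodexide over vehicle, was -1.51 among genes that fell and 0.74 among those that rose. At least a 2-fold change was reached by 368 of the genes that fell and 55 of those that rose, and an 8-fold change by 33 and 6. The genes that fell were mostly of low level, with a median of 3.09 CPM in sulodexide livers, 9.90 CPM in vehicle livers and 1.83 CPM in control livers. For the genes that rose the medians were 46.1 CPM in sulodexide livers, 23.7 CPM in vehicle livers and 68.2 CPM in control livers. CPM are counts scaled to a common library size. The 3 libraries of one group lay wholly on one side of the other group's in all 191 genes that rose and in 466 that fell, against 24.2% of all genes tested. Passing the test with 3 libraries per group largely selects for such separation, so it is no separate evidence. The same holds where it is given for single called genes below. The median log2 change over all genes was 0.02.

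**Figure D1:**
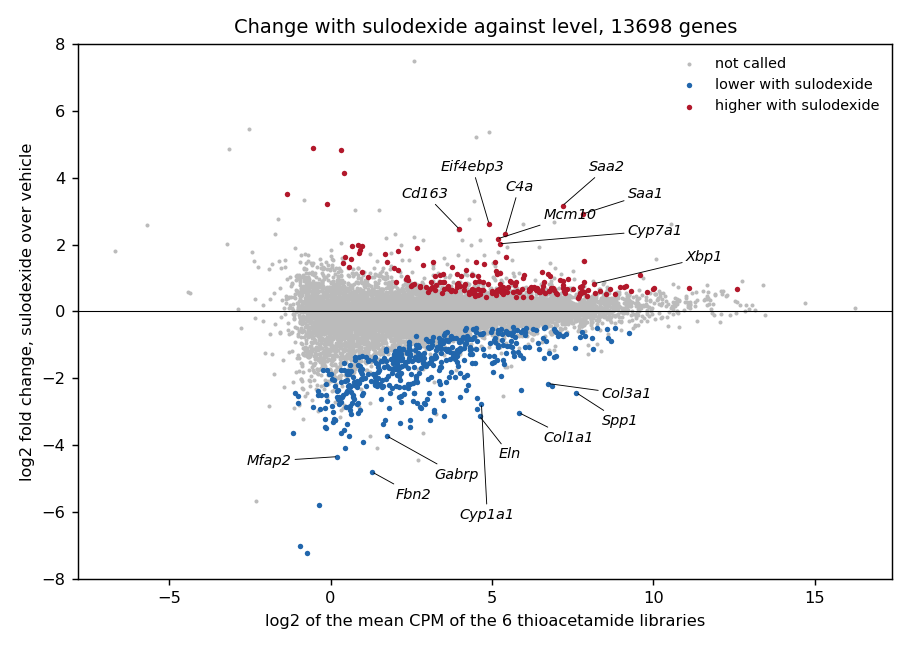
Fitted log2 fold change of sulodexide over vehicle (vertical axis) against the log2 of the mean CPM of the 6 TAA libraries (horizontal axis) for 13698 genes, with called genes coloured and 16 of them labelled. The 467 lowered genes reach further from 0 than the 191 raised ones, and Saa1 and Saa2 are raised at high levels.

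The libraries held 14386196 to 16655951 counts in the 6 TAA libraries. Hepatocyte markers (Alb, Ttr, Apoa1, Hnf4a) did not pass the test, the acinar marker Prss2 had 0 counts in every library, and all 9 libraries had Ddx3y at 9.46 CPM or more and Xist at 0.307 CPM or less. On the first principal component of the 6 TAA libraries (46.6% of the variance) the sulodexide libraries lay at -25.9, -37.4 and -32.7 and the vehicle libraries at 49.8, 11.5 and 34.6. Vehicle library 2 thus lay closest to the sulodexide libraries, and it was the vehicle library nearest to them in 400 of the 467 genes that fell (85.7%) and 97 of the 191 that rose. Without vehicle library 2 the fit called 189 genes higher and 670 lower. Counts of calls were smaller without sulodexide library 1 (142 higher, 316 lower), sulodexide library 2 (45, 95), sulodexide library 3 (155, 207), vehicle library 1 (44, 133), vehicle library 3 (47, 96), control library 1 (143, 374), control library 2 (126, 362) and control library 3 (153, 384). No gene called in the full fit changed direction in any of these. In a fit of the 6 TAA libraries alone, 48 of 176 called genes looked at singly lost their call. Every count given in what follows as without a library comes from the fit that left it out.

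Falls were ranked among called genes of at least 5 CPM in 1 of the TAA groups and without overlap of the libraries. The largest fall was that of Gabrp (ENSMUSG00000020159, chr11:33550781-33578959), a GABA receptor subunit of secretory epithelia. It had 0.711, 0.348 and 0.329 CPM in the sulodexide livers, against 7.69, 4.12 and 6.97 CPM in the vehicle livers and 0.291, 0.172 and 0.0816 CPM in the control livers. Gabrp had a log2 change of -3.73 (SE 0.41, adjusted p = 0.0053). Every sulodexide liver was below every vehicle liver and closer to the control than to the vehicle livers. Crispld2, a secreted protein of mesenchymal cells, had 1.18, 0.928 and 0.592 CPM in the sulodexide livers, against 13.1, 3.99 and 12.9 CPM in the vehicle livers. Crispld2 had a log2 change of -3.45 (SE 0.57, adjusted p = 0.012). Fhl2, a LIM-domain cofactor, had 0.7698, 0.464 and 0.395 CPM in the sulodexide livers, against 5.698, 2.76 and 8.53 CPM in the vehicle livers. Fhl2 had a log2 change of -3.36 (SE 0.54, adjusted p = 0.0099). In both genes the sulodexide livers were near or under 1 CPM, and vehicle library 2 was the lowest of its group. Scube3, a secreted signalling cofactor, had 1.07, 0.232 and 0.526 CPM in the sulodexide livers, against 7.74, 2.89 and 6.97 CPM in the vehicle livers. Scube3 had a log2 change of -3.25 (SE 0.54, adjusted p = 0.011). Tmem45a (-3.26), Sftpd (-3.002) (surfactant protein D, a lung and duct-cell collectin) and Cpxm1 (-2.90) (a secreted carboxypeptidase-like protein) also fell. Leaving out 1 of the 9 libraries at a time kept 4 of these 7 calls in every fit (Gabrp, Fhl2, Scube3 and Tmem45a). Lost calls numbered 1 without sulodexide library 3 or control library 3, 2 without sulodexide library 1 or vehicle library 1 or 3 and 3 without sulodexide library 2, at adjusted p from 0.059 to 0.13.

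Of the genes that rose, Saa2, Saa1, Cd163, C4a, Mcm10, Cyp7a1 and Dbp are described with their groups. Eif4ebp3 (ENSMUSG00000090264, chr18:36664060-36665917), a repressor of cap-dependent translation, had 81.1, 31.4 and 42.3 CPM in the sulodexide livers, against 6.13, 8.48 and 10.6 CPM in the vehicle livers and 115, 152 and 158 CPM in the control livers. Eif4ebp3 had a log2 change of 2.62 (SE 0.36, adjusted p = 0.0087). Sulodexide library 1 was the highest of its group, all 3 were above the vehicle livers, and all were below the control livers. Avpr1a (ENSMUSG00000020123, chr10:122448499-122453453), the vasopressin receptor of pericentral hepatocytes, had 30.02, 30.9 and 38.6 CPM in the sulodexide livers, against 9.78, 14.6 and 11.3 CPM in the vehicle livers and 17.3, 18.2 and 14.5 CPM in the control livers. Avpr1a had a log2 change of 1.48 (SE 0.17, adjusted p = 0.0053). Here the sulodexide livers were also above every control liver. Hopx, a homeodomain-only cofactor, had 38.4, 53.4 and 59.8 CPM in the sulodexide livers, against 19.03, 22.1 and 13.7 CPM in the vehicle livers. Hopx had a log2 change of 1.47 (SE 0.27, adjusted p = 0.016). Zkscan7, a zinc finger protein, had 6.69, 13.1 and 10.5 CPM in the sulodexide livers, against 1.88, 3.44 and 2.902 CPM in the vehicle livers. Zkscan7 had a log2 change of 1.88 (SE 0.29, adjusted p = 0.01). Adh6-ps1, an alcohol dehydrogenase pseudogene whose counts may share reads with its relatives, had 11.3, 16.9 and 11.6 CPM in the sulodexide livers, against 3.92, 4.299 and 5.98 CPM in the vehicle livers. Adh6-ps1 had a log2 change of 1.49 (SE 0.21, adjusted p = 0.0084). For both the 3 sulodexide livers lay above the vehicle livers and far below the controls, at 48.8, 44.8 and 67.4 CPM and 51.5, 42.4 and 57.5 CPM. Nlrp12 (1.42, adjusted p = 0.044) is a regulator of innate signalling, and Slc25a45 (1.07, adjusted p = 0.0082) a mitochondrial carrier. 1600002H07Rik (1.19, adjusted p = 0.0062) and C730036E19Rik (1.99, adjusted p = 0.0053) have no described role here. Gm16573 (1.38, adjusted p = 0.0053) overlaps exons of Parp4 on the other strand, and the strand setting of the counting is not given, so its reads could not be told from those of Parp4. With each of the 9 libraries left out in turn, 8 of the 10 calls named here held throughout (Eif4ebp3, Avpr1a, Zkscan7, Adh6-ps1, Slc25a45, 1600002H07Rik, C730036E19Rik and Gm16573). The number lost was 1 without sulodexide library 1 or any control library and 2 without sulodexide library 2 or 3 or vehicle library 1 or 3, at adjusted p from 0.051 to 0.15.

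The genes were next read in 58 lists of pathways and cell types. The plot of called members by list shows where the falls and the rises lay. For any list the background is 3.41% of genes lower, 1.39% higher and a median of 0.02. Of the 13701 genes tested, 2786 had an unadjusted p below 0.05. DESeq2 called 366 genes higher and 726 lower of 20273. Limma on FPKM, with a pseudocount of 1, called 90 higher and 870 lower of 13701. Counts given below for those cuts are to be read beside these.

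**Figure D2:**
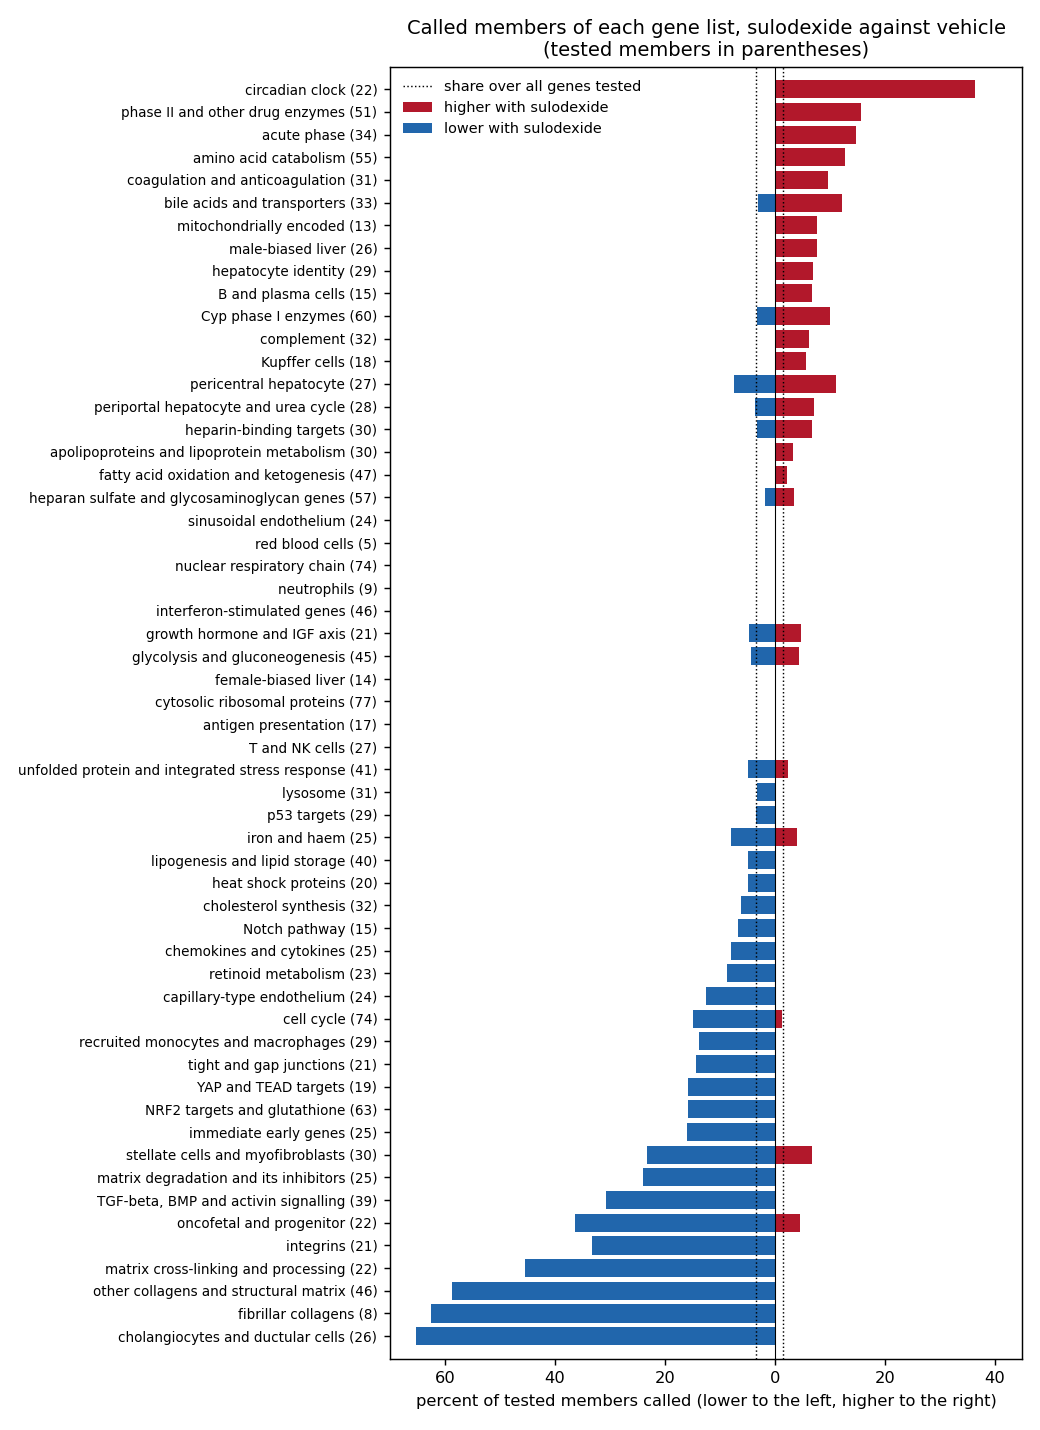
Percent of the tested members of each list that fell with sulodexide (bars to the left) or rose (bars to the right), for lists of at least 5 tested members. Dotted lines mark the shares over all genes, 3.41% lower and 1.39% higher. The cholangiocyte list had 17 of 26 members lower, and the clock list 8 of 22 higher.

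Of the fibrillar collagens, which form the tensile fibres of scar, 5 of 8 tested members fell (median log2 change -1.67). Col1a1 (ENSMUSG00000001506, chr11:94936224-94953042), the type I alpha-1 chain, had 18.8, 8.703 and 9.87 CPM in the sulodexide livers, against 115, 54.7 and 136 CPM in the vehicle livers and 4.07, 2.32 and 3.67 CPM in the control livers (log2 change -3.03, SE 0.41, adjusted p = 0.0087), 8.18-fold lower with sulodexide. Col3a1 (ENSMUSG00000026043, chr1:45311538-45349706), the type III chain, had 46.5, 30.7 and 39.9 CPM in the sulodexide livers, against 182, 136 and 205 CPM in the vehicle livers and 15.8, 12.2 and 14.7 CPM in the control livers (log2 change -2.16, SE 0.19, adjusted p = 0.0025) and the smallest p of all genes. The sulodexide livers did not overlap the vehicle livers in either gene and stayed above every control liver. Col1a2 (-2.34, adjusted p = 0.0053) and Col5a2 (-2.11, adjusted p = 0.0087), a minor chain of the same fibrils, fell alongside. The summed CPM of the list were 119, 105 and 106 CPM in the sulodexide livers, against 473, 307 and 551 CPM in the vehicle livers and 146, 155 and 157 CPM in the control livers. On this sum the sulodexide livers were below every control liver, unlike for Col1a1 and Col3a1. In the control livers those genes made up a small part of the sum, and other members held most of it. Of the 4 calls named here, 4 held in all 9 fits with 1 library left out.

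**Figure D3:**
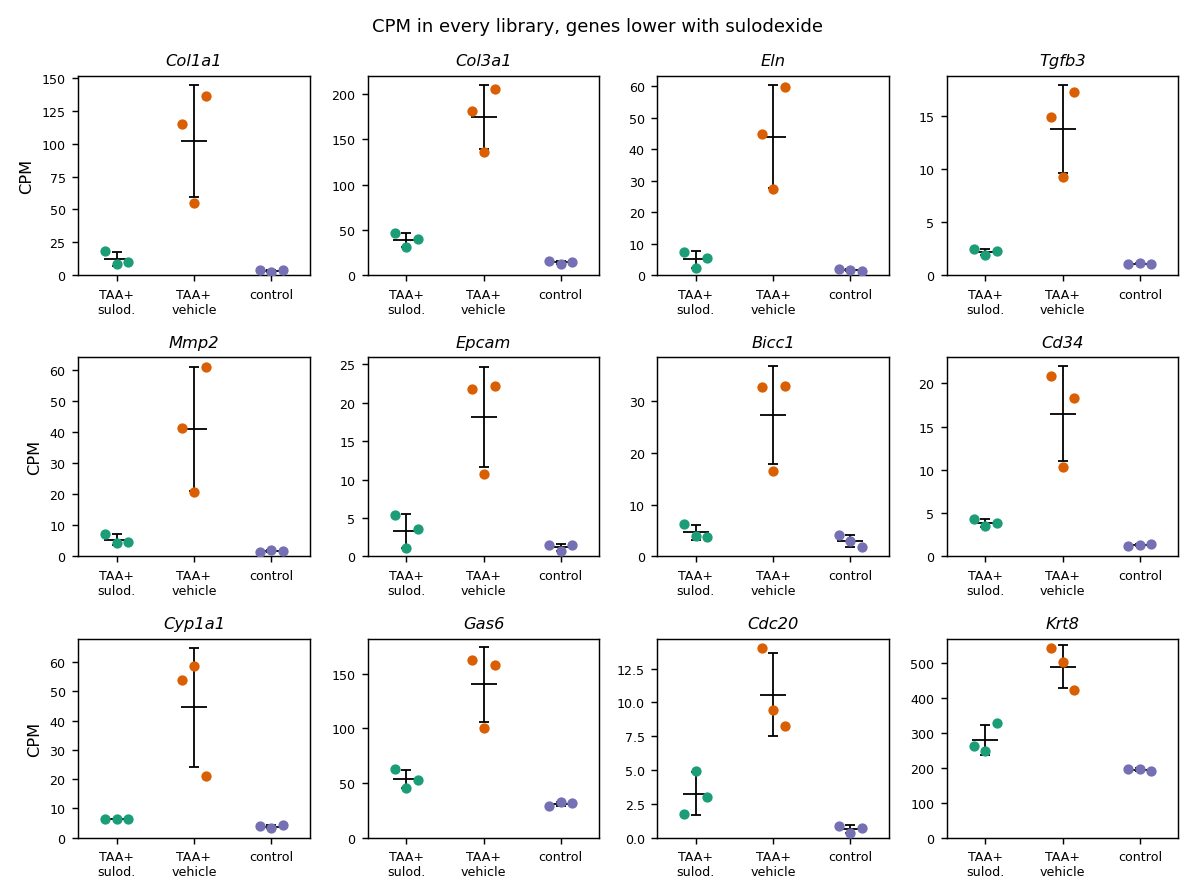
CPM in each of 3 libraries per group (points), with mean and SD (bars), for 12 genes lower with sulodexide. The 3 sulodexide livers lie below the 3 vehicle livers in every panel, and vehicle library 2 (middle point) is the lowest vehicle liver for Col1a1, Col3a1, Eln and Mmp2.

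In the remaining structural matrix, 27 of 46 tested members fell (median log2 change -1.30). Eln (ENSMUSG00000029675, chr5:134702593-134747323), elastin, had 7.22, 2.205 and 5.59 CPM in the sulodexide livers, against 44.9, 27.3 and 59.7 CPM in the vehicle livers. Eln had a log2 change of -3.14 (SE 0.41, adjusted p = 0.0087). Its fibre scaffold fell too: Fbn2, fibrillin 2, which is in no list, had 0.237, 0.174 and 0.0658 CPM in the sulodexide livers, against 5.43, 2.09 and 6.68 CPM in the vehicle livers. Fbn2 had a log2 change of -4.81 (SE 0.60, adjusted p = 0.0053). Mfap2, a microfibril protein, had 0.0592, 0.174 and 0.0658 CPM in the sulodexide livers, against 2.42, 1.597 and 2.61 CPM in the vehicle livers. Mfap2 had a log2 change of -4.35 (SE 0.59, adjusted p = 0.0074). These microfibril genes were close to 0 in the sulodexide livers and above 1 CPM in every vehicle liver. Emilin1 (-1.25) sits between elastin and microfibrils. Of basement membrane genes, Lamb1 (-1.11) and Nid1 (-1.07) fell. A pair of matricellular genes fell at higher levels. Sparc, which binds collagen, had 74.8, 63.5 and 77.4 CPM in the sulodexide livers, against 183, 132 and 232 CPM in the vehicle livers. Sparc had a log2 change of -1.34 (SE 0.19, adjusted p = 0.0077). Spp1, osteopontin, made by duct-like cells and macrophages, had 90.9, 35.9 and 56.7 CPM in the sulodexide livers, against 429, 173 and 392 CPM in the vehicle livers (log2 change -2.44, SE 0.42, adjusted p = 0.019), with all sulodexide livers under 100 CPM. The number of lower members was 12 without sulodexide library 2 and 14 without vehicle library 3. In the 9 fits that each left out 1 library, 5 of these 8 calls held every time (Eln, Fbn2, Mfap2, Emilin1 and Sparc). Calls were lost as follows: 1 without sulodexide library 1 or any control library and 3 without sulodexide library 2 or 3 or vehicle library 1 or 3, at adjusted p from 0.055 to 0.16.

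Of genes that cross-link and process collagen, 10 of 22 tested members fell (median log2 change -0.71). Lox, lysyl oxidase, had 0.592, 0.05802 and 0.0658 CPM in the sulodexide livers, against 3.602, 2.76 and 4.93 CPM in the vehicle livers. Lox had a log2 change of -3.92 (SE 0.71, adjusted p = 0.015). Loxl1, its elastin-directed relative, had 2.55, 1.799 and 2.04 CPM in the sulodexide livers, against 15.3, 8.72 and 25.1 CPM in the vehicle livers. Loxl1 had a log2 change of -2.94 (SE 0.36, adjusted p = 0.0053). Neither overlapped between the groups, and vehicle library 2 was the lowest vehicle liver in both. Adamts2 (-1.83, adjusted p = 0.0053) trims procollagen, and Fkbp10 (-1.83, adjusted p = 0.011) folds it, although its exons overlap Nt5c3b on the other strand. Lower members numbered 3 without sulodexide library 2 or vehicle library 3, 5 without vehicle library 1 and 6 without sulodexide library 3. Of proteases that degrade matrix, and their inhibitors, 6 of 25 tested members fell (median log2 change -0.997). Mmp2, gelatinase A, had 7.34, 4.29 and 4.61 CPM in the sulodexide livers, against 41.4, 20.8 and 60.9 CPM in the vehicle livers. Mmp2 had a log2 change of -2.92 (SE 0.37, adjusted p = 0.0074). Plat, tissue plasminogen activator, had 2.49, 0.928 and 1.45 CPM in the sulodexide livers, against 20.3, 7.55 and 18.3 CPM in the vehicle livers. Plat had a log2 change of -3.24 (SE 0.44, adjusted p = 0.0082). Timp2 (-1.45, adjusted p = 0.016), an inhibitor of Mmp2, and Adam15 (-0.93, adjusted p = 0.014), a membrane protease, were lower. Timp1, the inhibitor most used as a fibrosis marker, did not pass, at 0.829, 0.232 and 0.263 CPM in the sulodexide livers, against 3.39, 1.11 and 1.799 CPM in the vehicle livers (log2 change -2.23, adjusted p = 0.059). Lower degradation genes numbered 2 without sulodexide library 2 or vehicle library 1 or 3 and 10 without vehicle library 2. When libraries were left out singly, 4 of the 8 calls above held in all 9 fits (Loxl1, Adamts2, Mmp2 and Plat). Those lost were 2 without vehicle library 1, 3 without vehicle library 3 and 4 without sulodexide library 2, at adjusted p from 0.051 to 0.073.

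Of stellate cell genes, 2 of 30 tested members rose and 7 fell (median log2 change -0.60), and 26 of the 30 had a log2 change below 0, against 48.1% of all genes tested. Pdgfrb, the receptor for platelet-derived growth factor that drives stellate cell growth, had 11.1, 12.6 and 11.9 CPM in the sulodexide livers, against 29.9, 16.2 and 39.3 CPM in the vehicle livers. Pdgfrb had a log2 change of -1.26 (SE 0.26, adjusted p = 0.023). Pdgfra (-1.13, adjusted p = 0.029) and the ligand Pdgfc (-1.62, adjusted p = 0.0077), which is in no list, fell as well. Gas6, a ligand of the receptor Axl, had 62.8, 45.8 and 52.4 CPM in the sulodexide livers, against 162, 101 and 158 CPM in the vehicle livers and 29.2, 32.9 and 31.7 CPM in the control livers. Gas6 had a log2 change of -1.39 (SE 0.18, adjusted p = 0.0067). Its sulodexide values lay between the control and vehicle ranges. Cygb (-1.54), a stellate cell globin, and Ngfr (-0.83), a neurotrophin receptor, fell. Colec10 (0.82), a collectin, and Ecm1 (0.54), a secreted matrix protein, rose. Acta2, the smooth muscle actin of myofibroblasts, did not pass, at 5.63, 5.05 and 6.51 CPM in the sulodexide livers, against 6.83, 13.3 and 12.5 CPM in the vehicle livers (log2 change -0.92, adjusted p = 0.065); vehicle library 1 was close to the sulodexide livers. The actin-linked genes Flna (-0.95, adjusted p = 0.016) and Csrp1 (-1.33, adjusted p = 0.0067), in no list, fell. Lower members of the list numbered 2 without sulodexide library 2 or vehicle library 3 and 3 without sulodexide library 3 or vehicle library 1. Higher members numbered 0 without sulodexide library 2 or 3, vehicle library 1 or 3 or control library 1 and 1 without sulodexide library 1, vehicle library 2 or control library 2 or 3, so that no fit with a library left out kept both. Leaving out 1 of the 9 libraries at a time kept 3 of these 10 calls in every fit (Pdgfc, Gas6 and Csrp1). Lost calls numbered 1 without vehicle library 2 or control library 2 or 3, 2 without sulodexide library 1 or control library 1, 6 without sulodexide library 2 or 3 and 7 without vehicle library 1 or 3, at adjusted p from 0.053 to 0.17.

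TGF-beta is the main fibrogenic signal, held latent in the matrix and released by integrins. In its list 12 of 39 tested members fell (median log2 change -0.41). Of the ligands, Tgfb3 (ENSMUSG00000021253, chr12:86056744-86079041) had 2.49, 1.91 and 2.24 CPM in the sulodexide livers, against 14.8, 9.21 and 17.2 CPM in the vehicle livers and 1.02, 1.12 and 1.06 CPM in the control livers. Tgfb3 had a log2 change of -2.63 (SE 0.25, adjusted p = 0.003). Tgfb2 had 0.7698, 0.928 and 0.592 CPM in the sulodexide livers, against 3.06, 2.15 and 4.24 CPM in the vehicle livers. Tgfb2 had a log2 change of -2.03 (SE 0.36, adjusted p = 0.014). Tgfb1 did not pass, at 16.3, 16.7 and 11.98 CPM in the sulodexide livers, against 22.4, 17.7 and 27.7 CPM in the vehicle livers (log2 change -0.59, adjusted p = 0.12), with vehicle library 2 close to the highest sulodexide liver. The latent binding protein Ltbp2 had 3.49, 1.39 and 2.11 CPM in the sulodexide livers, against 26.6, 9.397 and 25.5 CPM in the vehicle livers. Ltbp2 had a log2 change of -3.13 (SE 0.43, adjusted p = 0.0087). Of the integrin chains that release TGF-beta, Itgb6 had 0.178, 0 and 0.329 CPM in the sulodexide livers, against 2.31, 0.983 and 1.51 CPM in the vehicle livers. Itgb6 had a log2 change of -3.23 (SE 0.74, adjusted p = 0.042). Itgb8 had 0.533, 0.2901 and 0.0658 CPM in the sulodexide livers, against 1.77, 1.84 and 2.67 CPM in the vehicle livers. Itgb8 had a log2 change of -2.76 (SE 0.51, adjusted p = 0.016). Both were under 3 CPM in all livers, so that few counts stand behind them. Fstl1 (-1.89, adjusted p = 0.0053), a secreted follistatin relative, and Id1 (-0.79, adjusted p = 0.023), a BMP target, fell. The number of lower members was 3 without vehicle library 3, 4 without sulodexide library 2 and 6 without vehicle library 1. Among integrins as a list, 7 of 21 tested members fell (median log2 change -0.63), including Itga8 (-1.97) of stellate cells, Itgb4 (-2.26) of duct epithelium and Itgb5 (-0.73); the number was 1 without sulodexide library 2 or vehicle library 3, 2 without vehicle library 1 and 4 without sulodexide library 3. Of YAP and TEAD targets, 3 of 19 tested members fell (median log2 change -0.34). Ctgf, a matricellular growth factor, had 20.1, 18.7 and 26.5 CPM in the sulodexide livers, against 55.9, 39.7 and 82.02 CPM in the vehicle livers. Ctgf had a log2 change of -1.45 (SE 0.26, adjusted p = 0.016); Ankrd1 (-2.88, adjusted p = 0.028) and Ptpn14 (-1.30, adjusted p = 0.039) were the others, and the number was 0 without sulodexide library 2 and 1 without sulodexide library 3, vehicle library 1 or 3 or control library 2. With each of the 9 libraries left out in turn, 4 of the 13 calls named here held throughout (Tgfb3, Ltbp2, Fstl1 and Itga8). The number lost was 1 without control library 1 or 3, 2 without sulodexide library 1, 3 without sulodexide library 3 or control library 2, 6 without vehicle library 1 and 8 without sulodexide library 2 or vehicle library 3, at adjusted p from 0.051 to 0.14.

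Of bile duct and ductular genes, 17 of 26 tested members fell (median log2 change -1.995). Epcam (ENSMUSG00000045394, chr17:87635979-87651106), an adhesion molecule of duct cells, had 5.45, 1.04 and 3.62 CPM in the sulodexide livers, against 21.8, 10.7 and 22.1 CPM in the vehicle livers and 1.45, 0.689 and 1.47 CPM in the control livers. Epcam had a log2 change of -2.43 (SE 0.50, adjusted p = 0.027). Krt19, a duct cell keratin, had 3.73, 1.102 and 2.83 CPM in the sulodexide livers, against 14.3, 6.45 and 20.8 CPM in the vehicle livers (log2 change -2.44, SE 0.50, adjusted p = 0.025), and its partner Krt7 fell (-2.49, adjusted p = 0.023). Sulodexide library 2 was the lowest and vehicle library 2 the lowest of its group in these genes, and no liver crossed over. Bicc1, an RNA-binding protein of ducts and kidney tubules, had 6.22, 4.003 and 3.69 CPM in the sulodexide livers, against 32.6, 16.5 and 32.7 CPM in the vehicle livers. Bicc1 had a log2 change of -2.55 (SE 0.33, adjusted p = 0.0074). Ehf (-2.68) and Sox9 (-1.67) are epithelial transcription factors of this compartment, and Pkhd1 (-1.51) a protein of the duct cell cilium. Junction proteins fell with them: Cldn4 had 1.24, 0.232 and 0.921 CPM in the sulodexide livers, against 12.9, 3.69 and 7.55 CPM in the vehicle livers. Cldn4 had a log2 change of -3.33 (SE 0.58, adjusted p = 0.015). Cldn7 (-2.55, adjusted p = 0.0091) and Cdh1 (-1.57, adjusted p = 0.021), E-cadherin, fell as well. Lower members numbered 4 without vehicle library 3, 5 without sulodexide library 3, 6 without sulodexide library 2 and 7 without vehicle library 1. Krt8 and Krt18, the keratins that hepatocytes share with duct cells and which are in no list, fell too. Krt8 had 262, 248 and 328 CPM in the sulodexide livers, against 543, 503 and 422 CPM in the vehicle livers and 196, 197 and 190.1 CPM in the control livers. Krt8 had a log2 change of -0.81 (SE 0.14, adjusted p = 0.013). Krt18 had 304, 286 and 342 CPM in the sulodexide livers, against 453, 432 and 448 CPM in the vehicle livers and 161, 173 and 158 CPM in the control livers. Krt18 had a log2 change of -0.52 (SE 0.11, adjusted p = 0.026). Of the 12 calls named here, 3 held in all 9 fits with 1 library left out (Bicc1, Ehf and Cldn7). Losses came to 2 without sulodexide library 1, 5 without vehicle library 1, 6 without sulodexide library 2 or 3 and 7 without vehicle library 3, at adjusted p from 0.05 to 0.11.

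Of genes of the fetal and injured liver, 1 of 22 tested members rose and 8 fell (median log2 change -0.84). Lower members numbered 4 without sulodexide library 2 or vehicle library 1 or 3 and 5 without sulodexide library 3. Anxa2, a membrane-binding annexin, had 38.96, 27.2 and 36.9 CPM in the sulodexide livers, against 121, 62.5 and 88.3 CPM in the vehicle livers and 9.16, 10.5 and 8.82 CPM in the control livers. Anxa2 had a log2 change of -1.40 (SE 0.22, adjusted p = 0.01). Anxa3 fell (-1.41, adjusted p = 0.014). Pkm, the pyruvate kinase of fetal and non-parenchymal cells, had 25.05, 33.2 and 28.6 CPM in the sulodexide livers, against 111, 39.98 and 69.4 CPM in the vehicle livers. Pkm had a log2 change of -1.34 (SE 0.30, adjusted p = 0.037). Vehicle library 1 was far above vehicle library 2, which lay just above the sulodexide livers. Gpc3, an oncofetal glypican, had 40.98, 38.1 and 37.9 CPM in the sulodexide livers, against 65.6, 67.3 and 64.2 CPM in the vehicle livers and 0.145, 0.603 and 0.327 CPM in the control livers (log2 change -0.75, SE 0.16, adjusted p = 0.022), so that it remained high in all 6 TAA livers beside control livers under 1 CPM. Peg3, an imprinted gene, rose (0.95, adjusted p = 0.041), and the number of higher members was 0 without sulodexide library 2 or 3, vehicle library 1 or 3 or any control library. In the 9 fits that each left out 1 library, 2 of these 5 calls held every time (Anxa2 and Anxa3). Calls were lost as follows: 1 without sulodexide library 1, 2 without any control library and 3 without sulodexide library 2 or 3 or vehicle library 1 or 3, at adjusted p from 0.05 to 0.15.

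Endothelial genes were read in a sinusoidal and a capillary-type list. Of sinusoidal endothelial genes, 0 of 24 tested members passed edgeR's adjusted test (median log2 change 0.21), 6 higher and 0 lower had an unadjusted p below 0.05, DESeq2 called 1 higher and 0 lower, and limma on FPKM called 0 higher and 0 lower. Their summed CPM were 701, 922 and 749.6 CPM in the sulodexide livers, against 764, 602 and 665 CPM in the vehicle livers, and the groups overlapped. Of capillary-type genes, 3 of 24 tested members fell, or 12.5% against 3.41% of all genes (median log2 change -0.14). Cd34 (ENSMUSG00000016494, chr1:194938819-194961279), which marks capillary endothelium and also fibroblast and progenitor cells, had 4.32, 3.48 and 3.82 CPM in the sulodexide livers, against 20.8, 10.4 and 18.3 CPM in the vehicle livers and 1.16, 1.38 and 1.39 CPM in the control livers. Cd34 had a log2 change of -2.09 (SE 0.25, adjusted p = 0.0053). The 3 sulodexide livers were all under 5 CPM and the vehicle livers all above 10. The other members that fell were the laminin and nidogen genes given above, and the number was 1 without sulodexide library 2 or 3 or vehicle library 1 or 3. For Cd34 the call held in all 9 fits with 1 library left out.

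Macrophage genes moved in both directions. Cd163 (ENSMUSG00000008845, chr6:124304656-124330527), the haemoglobin scavenger receptor of resident macrophages, had 23.8, 36.8 and 19.9 CPM in the sulodexide livers, against 4.19, 7.06 and 3.42 CPM in the vehicle livers and 27.04, 13.9 and 15.8 CPM in the control livers (log2 change 2.46, SE 0.36, adjusted p = 0.0091), 5.499-fold higher. It was the only called member of the Kupffer cell list, in which 1 of 18 tested members rose (median log2 change 0.13), or 2 without sulodexide library 1. Clec4f, the defining Kupffer cell gene, had 85.5, 168 and 122 CPM in the sulodexide livers, against 88.8, 78.6 and 67.6 CPM in the vehicle livers and did not pass (log2 change 0.67, adjusted p = 0.10); vehicle library 1 lay above sulodexide library 1. In the list of recruited monocytes and macrophages 4 of 29 tested members fell (median log2 change -0.75). Cx3cr1, the fractalkine receptor, had 1.89, 1.16 and 2.303 CPM in the sulodexide livers, against 10.6, 3.81 and 6.15 CPM in the vehicle livers. Cx3cr1 had a log2 change of -1.94 (SE 0.42, adjusted p = 0.026). Its ligand Cx3cl1, made by epithelium, had 2.84, 1.33 and 1.58 CPM in the sulodexide livers, against 17.3, 5.16 and 17.1 CPM in the vehicle livers. Cx3cl1 had a log2 change of -2.77 (SE 0.47, adjusted p = 0.013). S100a11 (-1.45, adjusted p = 0.0087) and Cd9 (-0.94, adjusted p = 0.024), found in scar macrophages and epithelium, fell, and Spp1 is also on this list. Gpnmb, a gene of lipid-laden macrophages, did not pass, at 3.85, 2.96 and 2.37 CPM in the sulodexide livers, against 18.01, 7.06 and 5.22 CPM in the vehicle livers (log2 change -1.72, adjusted p = 0.054). The number of lower members was 1 without sulodexide library 2 or 3 or vehicle library 1, 2 without vehicle library 3 and 8 without vehicle library 2. The summed CPM of this list were 389, 461 and 444 CPM in the sulodexide livers, against 1307, 554 and 869 CPM in the vehicle livers, highest in vehicle library 1. Of chemokines and cytokines, 2 of 25 tested members fell (median log2 change -0.13), namely Cx3cl1 and Cxcl14 (-1.48, adjusted p = 0.032). This count was 0 without sulodexide library 2 or 3 or vehicle library 3 and 1 without sulodexide library 1, vehicle library 1 or control library 2. When libraries were left out singly, 2 of the 6 calls above held in all 9 fits (Cd163 and S100a11). Those lost were 1 without control library 2, 2 without sulodexide library 1, 3 without vehicle library 1 and 4 without sulodexide library 2 or 3 or vehicle library 3, at adjusted p from 0.05 to 0.11.

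Of 4 further immune lists no member passed, and vehicle library 1 had the highest summed CPM of the TAA libraries in each. For antigen presentation, 0 of 17 tested members passed edgeR's adjusted test (median log2 change -1.14), 0 higher and 4 lower had an unadjusted p below 0.05, DESeq2 called 0 higher and 0 lower, and limma on FPKM called 0 higher and 2 lower. The summed CPM were 262, 503 and 412 CPM in the sulodexide livers, against 1729, 319.6 and 588 CPM in the vehicle livers. Vehicle library 1 was thus the highest, and vehicle library 2 lay within the sulodexide range. For T and NK cells, 0 of 27 tested members passed edgeR's adjusted test (median log2 change -0.63), 1 higher and 3 lower had an unadjusted p below 0.05, DESeq2 called 0 higher and 0 lower, and limma on FPKM called 0 higher and 0 lower. Their summed CPM were 43.3, 64.7 and 55.3 CPM in the sulodexide livers, against 128, 35.8 and 70.4 CPM in the vehicle livers, again highest in vehicle library 1. For neutrophils, 0 of 9 tested members passed edgeR's adjusted test (median log2 change -0.997), 0 higher and 2 lower had an unadjusted p below 0.05, DESeq2 called 0 higher and 2 lower, and limma on FPKM called 0 higher and 0 lower. Ngp, a neutrophil granule gene, had 0.178, 0.522 and 0.263 CPM in the sulodexide livers, against 10.3, 1.29 and 1.57 CPM in the vehicle livers (log2 change -3.74, adjusted p = 0.051). The summed CPM of the list were 143, 118 and 94.7 CPM in the sulodexide livers, against 231, 45.6 and 74.6 CPM in the vehicle livers, so that vehicle libraries 2 and 3 were below all sulodexide livers. This sum did not follow most members, since 8 of the 9 had a log2 change below 0, against 48.1% of all genes tested. The markers S100a8 and S100a9 had at most 2.15 and 5.05 CPM in the sulodexide livers, so that other members held most of the sum. For interferon-stimulated genes, 0 of 46 tested members passed edgeR's adjusted test (median log2 change -0.28), 3 higher and 5 lower had an unadjusted p below 0.05, DESeq2 called 2 higher and 3 lower, and limma on FPKM called 0 higher and 1 lower. The summed CPM were 874, 1048 and 951 CPM in the sulodexide livers, against 1494, 769 and 847 CPM in the vehicle livers and 1210, 1196 and 1420 CPM in the control livers. Here vehicle library 1 was near the control level, and the other TAA livers were below every control liver. The part of vehicle library 1 in the immune differences was not tested beyond the fits without it.

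**Figure D4:**
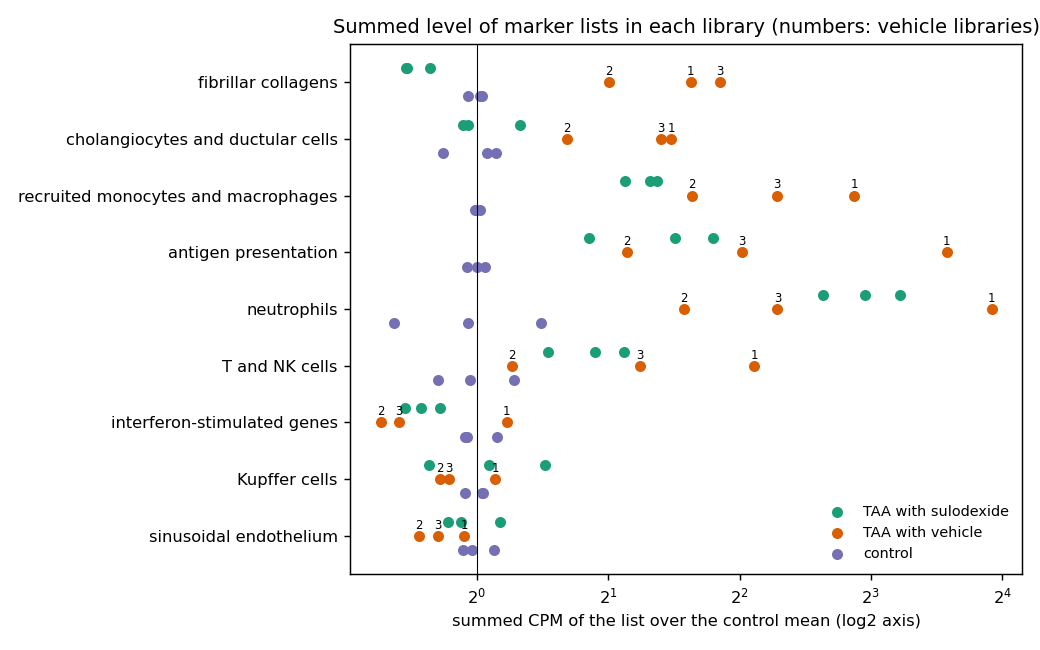
Summed CPM of each marker list in every library, divided by the control mean (horizontal log2 axis), with sulodexide livers above vehicle livers above control livers and vehicle libraries numbered. Vehicle library 1 is highest for the immune lists other than Kupffer cells, for which sulodexide library 2 is highest. Vehicle library 2 lies nearest the sulodexide livers for fibrillar collagens and ductular genes.

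Of acute phase plasma proteins, which hepatocytes make under interleukin signals, 5 of 34 tested members rose (median log2 change 0.48). Saa1 and Saa2, the inducible serum amyloid A genes, gave the largest rises of the called genes of at least 5 CPM in 1 of the TAA groups. Saa1 (ENSMUSG00000074115, chr7:46740501-46742980) had 271, 489.7 and 430.3 CPM in the sulodexide livers, against 63.1, 38.2 and 56.4 CPM in the vehicle livers and 42.9, 69.995 and 158 CPM in the control livers. Saa1 had a log2 change of 2.92 (SE 0.49, adjusted p = 0.018). Saa2 (ENSMUSG00000057465, chr7:46751833-46754314) had 229, 351 and 207 CPM in the sulodexide livers, against 41.02, 16.6 and 29.95 CPM in the vehicle livers and 14.6, 22.2 and 61.1 CPM in the control livers. Saa2 had a log2 change of 3.16 (SE 0.59, adjusted p = 0.028). The sulodexide livers were above both the vehicle and the control livers, with no overlap, and the control livers varied more than the vehicle livers. The genes are close copies, and their reads may be shared by the counting. Saa4, the constitutive relative, had 267, 481 and 274 CPM in the sulodexide livers, against 108, 117 and 133 CPM in the vehicle livers and 579, 696 and 855 CPM in the control livers (log2 change 1.52, SE 0.23, adjusted p = 0.0091), below the control level. Serpina3n, a protease inhibitor, had 1180.1, 1208 and 749 CPM in the sulodexide livers, against 439, 463 and 578 CPM in the vehicle livers. Serpina3n had a log2 change of 1.08 (SE 0.20, adjusted p = 0.016). Crp (0.74, adjusted p = 0.011), C-reactive protein, rose. The number of higher members was 2 without sulodexide library 2 or vehicle library 1 or 3. Socs3, a feedback inhibitor induced by interleukin 6, had 13.7, 59.99 and 7.502 CPM in the sulodexide livers, against 6.29, 6.33 and 5.92 CPM in the vehicle livers and did not pass (log2 change 2.13, adjusted p = 0.15), with sulodexide library 2 alone high. The receptor genes Il1rap (0.91, adjusted p = 0.0087), whose exons overlap the antisense gene Gm20319, Il15ra (1.09, adjusted p = 0.011) and Lifr (0.79, adjusted p = 0.03), all in no list, rose. Leaving out 1 of the 9 libraries at a time kept 3 of these 8 calls in every fit (Saa4, Il1rap and Il15ra). Lost calls numbered 1 without sulodexide library 1 or vehicle library 2, 3 without sulodexide library 3 and 4 without sulodexide library 2 or vehicle library 1 or 3, at adjusted p from 0.05 to 0.12.

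The 250 bases before the start of Saa1 (chr7:46742981-46743230, minus strand) and of Saa2 (chr7:46751583-46751832, plus strand) are shown as RefSeq gives them for GRCm38.p6, because the genes lie close together, read in opposite directions and rose together. Capitals mark bases without a match in the other promoter. In a global alignment 238 of the 250 bases matched (95.2%).
Saa1: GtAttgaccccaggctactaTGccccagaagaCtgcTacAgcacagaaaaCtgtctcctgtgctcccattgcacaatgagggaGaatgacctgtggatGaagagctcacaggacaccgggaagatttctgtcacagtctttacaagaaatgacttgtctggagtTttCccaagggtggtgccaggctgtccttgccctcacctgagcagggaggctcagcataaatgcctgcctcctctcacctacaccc
Saa2: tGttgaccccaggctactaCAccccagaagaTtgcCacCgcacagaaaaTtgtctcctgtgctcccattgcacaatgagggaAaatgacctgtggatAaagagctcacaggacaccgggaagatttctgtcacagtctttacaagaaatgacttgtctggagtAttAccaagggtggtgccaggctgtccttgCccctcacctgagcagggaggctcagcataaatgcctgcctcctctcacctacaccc

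Of complement genes, 2 of 32 tested members rose (median log2 change 0.26). C4a (ENSMUSG00000015451, chr17:34809092-34823464), a close copy of C4b with which it may share reads, had 50.7, 82.3 and 80.5 CPM in the sulodexide livers, against 9.14, 14.99 and 18.6 CPM in the vehicle livers and 194, 188 and 308 CPM in the control livers. C4a had a log2 change of 2.32 (SE 0.31, adjusted p = 0.0082). C8b, of the membrane attack complex, had 181, 286 and 188 CPM in the sulodexide livers, against 81.3, 148 and 104 CPM in the vehicle livers. C8b had a log2 change of 0.98 (SE 0.24, adjusted p = 0.047). All sulodexide livers exceeded all vehicle livers, and both genes stayed below the control livers. Higher complement genes numbered 1 without sulodexide library 2 or 3, vehicle library 1 or 3 or any control library and 4 without sulodexide library 1. Among coagulation genes, 3 of 31 tested members rose (median log2 change 0.23). F9, factor IX, had 129, 143 and 151 CPM in the sulodexide livers, against 91.8, 86.5 and 87.6 CPM in the vehicle livers. F9 had a log2 change of 0.67 (SE 0.11, adjusted p = 0.0091). F13b rose (0.62, adjusted p = 0.018), and Klkb1, prekallikrein, whose exons overlap Cyp4v3, rose (0.57, adjusted p = 0.038). The protein partners of sulodexide did not pass: Serpinc1, antithrombin, had 1259, 1365 and 1357 CPM in the sulodexide livers, against 940.1, 1195 and 1223 CPM in the vehicle livers (log2 change 0.25, adjusted p = 0.39), and Serpind1, heparin cofactor II, had 404, 485 and 507 CPM in the sulodexide livers, against 393, 412 and 439 CPM in the vehicle livers (log2 change 0.17, adjusted p = 0.52). Higher coagulation genes numbered 1 without sulodexide library 2 or vehicle library 1 or 3. With each of the 9 libraries left out in turn, 2 of the 5 calls named here held throughout (C4a and F9). The number lost was 1 without sulodexide library 1, 2 without sulodexide library 3 or any control library and 3 without sulodexide library 2 or vehicle library 1 or 3, at adjusted p from 0.051 to 0.14.

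Genes of glycosaminoglycan synthesis and breakdown were called at a share near that of all genes, 5.26% against 4.80%. In that list 2 of 57 tested members rose and 1 fell (median log2 change -0.14). Extl1, an exostosin-like glycosyltransferase, had 6.45, 6.56 and 7.04 CPM in the sulodexide livers, against 2.58, 1.72 and 1.34 CPM in the vehicle livers and 15.1, 18.3 and 16.6 CPM in the control livers. Extl1 had a log2 change of 1.82 (SE 0.23, adjusted p = 0.0053). Hyal1, a lysosomal hyaluronidase whose exons overlap Naa80 and Hyal3, rose (1.12, adjusted p = 0.024). Hpse, heparanase, the enzyme sulodexide is known to inhibit, had 7.16, 8.24 and 8.49 CPM in the sulodexide livers, against 13.8, 6.88 and 9.29 CPM in the vehicle livers and did not pass (log2 change -0.33, adjusted p = 0.49). Of heparin-binding proteins, 2 of 30 tested members rose and 1 fell (median log2 change 0.06). Fgf1, a growth factor stored on heparan sulfate, had 73.7, 70.9 and 53.4 CPM in the sulodexide livers, against 32.4, 44.9 and 37.8 CPM in the vehicle livers and 182, 178 and 174 CPM in the control livers. Fgf1 had a log2 change of 0.78 (SE 0.15, adjusted p = 0.018). Mdk, midkine, had 0.296, 0.174 and 0.658 CPM in the sulodexide livers, against 2.04, 1.41 and 3.13 CPM in the vehicle livers. Mdk had a log2 change of -2.55 (SE 0.60, adjusted p = 0.036). Lpl, lipoprotein lipase, had 8.11, 13.9 and 6.71 CPM in the sulodexide livers, against 26.9, 12.8 and 27.3 CPM in the vehicle livers and did not pass (log2 change -1.22, adjusted p = 0.12); sulodexide library 2 lay above vehicle library 2. The glycosaminoglycan list had higher members numbering 1 without sulodexide library 2 or vehicle library 1 or 3, and lower ones numbering 0 without sulodexide library 2 or 3 or vehicle library 1 or 3 and 3 without vehicle library 2. For heparin-binding proteins, higher members numbered 0 without sulodexide library 2 or vehicle library 1 or 3, and lower ones 0 without sulodexide library 2, vehicle library 1 or 3 or control library 2 and 3 without vehicle library 2. Of the 4 calls named here, 1 held in all 9 fits with 1 library left out (Extl1). Losses came to 1 without sulodexide library 1 or control library 2 and 3 without sulodexide library 2 or vehicle library 1 or 3, at adjusted p from 0.055 to 0.13.

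**Figure D5:**
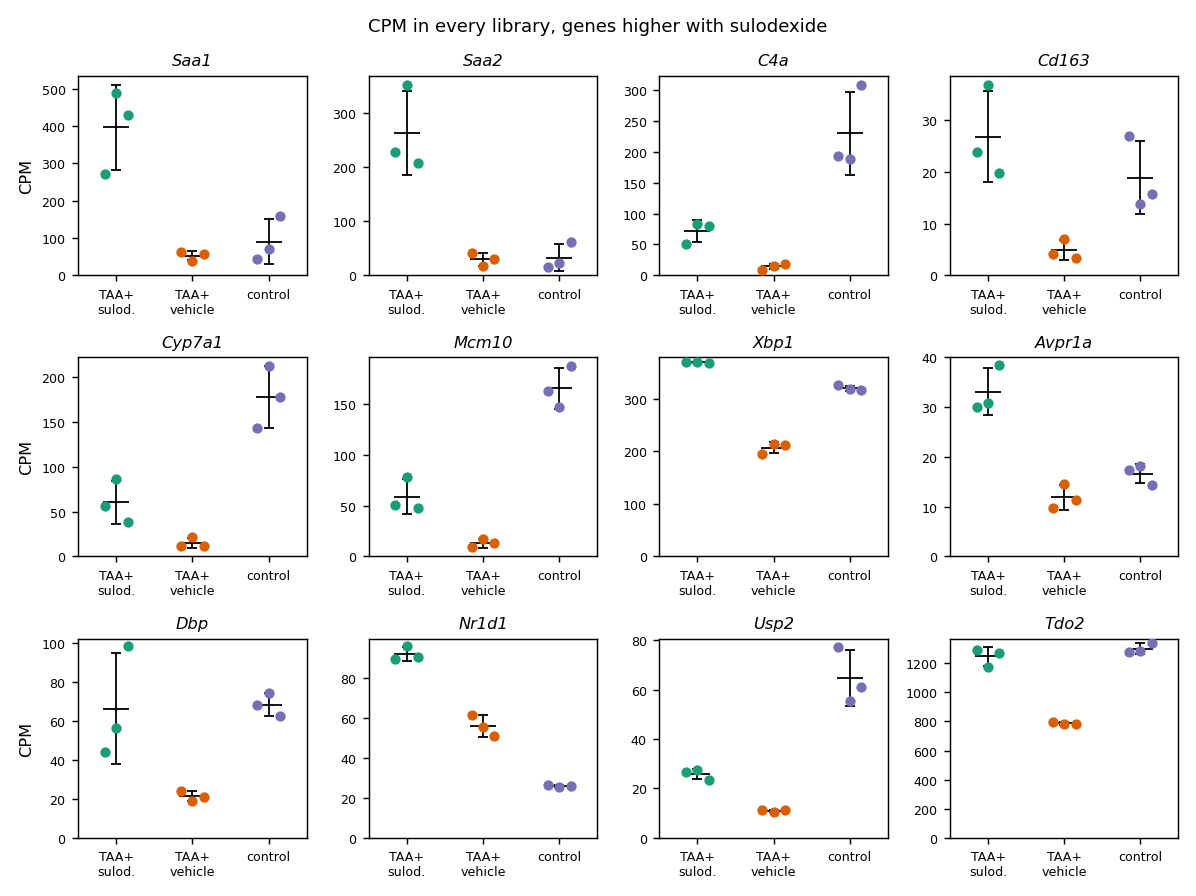
CPM in each of 3 libraries per group (points), with mean and SD (bars), for 12 genes higher with sulodexide. The sulodexide livers exceed the vehicle livers in every panel, and they exceed the control livers in Saa1, Saa2, Xbp1, Avpr1a and Nr1d1.

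Hepatocyte functions were read from bile acid, drug, amino acid and lipid lists. Cyp7a1 (ENSMUSG00000028240, chr4:6265612-6275633), the rate-limiting enzyme of bile acid synthesis, had 56.5, 85.9 and 38.8 CPM in the sulodexide livers, against 11.1, 21.7 and 11.8 CPM in the vehicle livers and 143, 211 and 177 CPM in the control livers (log2 change 2.02, SE 0.34, adjusted p = 0.016), 4.06-fold higher and still below the control livers. In the bile acid list 4 of 33 tested members rose and 1 fell (median log2 change 0.31). Slc10a1, the main bile acid uptake carrier, had 278, 231 and 250.1 CPM in the sulodexide livers, against 162, 177 and 177 CPM in the vehicle livers. Slc10a1 had a log2 change of 0.56 (SE 0.12, adjusted p = 0.025). The carriers Slco1b2 (0.63, adjusted p = 0.018) and Slco2b1 (0.60, adjusted p = 0.034) rose, and the efflux pump Abcc4, at 44.4, 33.1 and 22.7 CPM in the sulodexide livers, against 98.5, 70.2 and 66.2 CPM in the vehicle livers and 2.18, 1.89 and 1.71 CPM in the control livers (log2 change -1.23, SE 0.23, adjusted p = 0.016), fell. Nr1h4, the bile acid receptor FXR, did not pass (log2 change 0.55, adjusted p = 0.086). Higher members numbered 0 without vehicle library 1 or 3, 1 without sulodexide library 2 and 2 without sulodexide library 1, and lower ones 0 without sulodexide library 2 or vehicle library 1. In the 9 fits that each left out 1 library, 0 of these 5 calls held every time. Calls were lost as follows: 1 without vehicle library 2 or control library 2, 2 without sulodexide library 1, 4 without sulodexide library 2 or vehicle library 3 and 5 without vehicle library 1, at adjusted p from 0.053 to 0.14.

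Of cytochrome P450 genes, 6 of 60 tested members rose and 2 fell (median log2 change 0.32). Cyp2c54 had 143, 164 and 239.9 CPM in the sulodexide livers, against 91.4, 90.6 and 103 CPM in the vehicle livers. Cyp2c54 had a log2 change of 0.94 (SE 0.18, adjusted p = 0.017). Cyp2j5 had 253, 326 and 259 CPM in the sulodexide livers, against 166, 175 and 158 CPM in the vehicle livers. Cyp2j5 had a log2 change of 0.75 (SE 0.13, adjusted p = 0.013). Cyp2c50 (0.68, adjusted p = 0.038) and Cyp3a13 (0.55, adjusted p = 0.042) rose. Cyp2c genes are close copies and may share reads. Cyp2e1, which activates TAA, had 2841, 2370.2 and 3989 CPM in the sulodexide livers, against 1619.9, 2054 and 2483 CPM in the vehicle livers and 7631, 9764 and 9485 CPM in the control livers and did not pass (log2 change 0.58, adjusted p = 0.16). Vehicle library 3 lay above sulodexide library 2. The P450 genes that fell are known targets of the aryl hydrocarbon receptor. Cyp1a1 (ENSMUSG00000032315, chr9:57697613-57703822) had 6.51, 6.56 and 6.45 CPM in the sulodexide livers, against 53.8, 58.6 and 21.1 CPM in the vehicle livers and 3.85, 3.36 and 4.25 CPM in the control livers (log2 change -2.77, SE 0.33, adjusted p = 0.006), with near-identical sulodexide values, and Cyp1b1 had 0.7698, 0.638 and 1.45 CPM in the sulodexide livers, against 6.77, 3.07 and 3.599 CPM in the vehicle livers. Cyp1b1 had a log2 change of -2.24 (SE 0.43, adjusted p = 0.018). Higher members numbered 0 without vehicle library 3, 1 without vehicle library 1, 2 without sulodexide library 2 or 3 or control library 2 and 3 without vehicle library 2, and lower ones 1 without sulodexide library 1 or 2 or vehicle library 1 or 3. Of conjugating and other drug enzymes, 8 of 51 tested members rose (median log2 change 0.30). Sult1d1, a sulfotransferase, had 144, 107 and 128 CPM in the sulodexide livers, against 66.9, 74.1 and 65.5 CPM in the vehicle livers. Sult1d1 had a log2 change of 0.87 (SE 0.15, adjusted p = 0.011). Nnmt, which methylates nicotinamide, had 133, 163 and 142 CPM in the sulodexide livers, against 73.6, 64.6 and 64.4 CPM in the vehicle livers. Nnmt had a log2 change of 1.11 (SE 0.17, adjusted p = 0.0087). Ugt2a3 (0.69, adjusted p = 0.02) and Sult1b1 (0.72, adjusted p = 0.022) rose. Their number was 2 without sulodexide library 2 or vehicle library 1 or 3, 4 without sulodexide library 3 or control library 1 and 5 without control library 2. When libraries were left out singly, 2 of the 10 calls above held in all 9 fits (Cyp1a1 and Nnmt). Those lost were 2 without vehicle library 2 or control library 2, 3 without sulodexide library 1 or 3, 6 without sulodexide library 2 or vehicle library 1 and 8 without vehicle library 3, at adjusted p from 0.05 to 0.14.

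Of amino acid breakdown genes, 7 of 55 tested members rose (median log2 change 0.24). Tdo2, which opens the tryptophan ring, had 1294, 1173 and 1274 CPM in the sulodexide livers, against 798, 779 and 785 CPM in the vehicle livers and 1279.9, 1283 and 1342 CPM in the control livers (log2 change 0.66, SE 0.11, adjusted p = 0.011), so that sulodexide livers lay near the control range. Aass (0.62, adjusted p = 0.021) of lysine and Dmgdh (0.51, adjusted p = 0.023) of choline breakdown rose. Higher members numbered 1 without sulodexide library 2 or vehicle library 1 or 3, 3 without sulodexide library 1 or vehicle library 2 and 4 without control library 2. Of periportal genes, 2 of 28 tested members rose and 1 fell (median log2 change 0.28), with Otc, of the urea cycle, at 161, 192 and 192 CPM in the sulodexide livers, against 114, 134 and 108 CPM in the vehicle livers. Otc had a log2 change of 0.62 (SE 0.15, adjusted p = 0.038). Igfals (0.59, adjusted p = 0.02), a carrier of growth factors, rose, and the periportal member that fell was Cdh1, given above with the duct genes. Of pericentral genes, 3 of 27 tested members rose and 2 fell (median log2 change 0.15). Oat, ornithine aminotransferase, had 63.1, 30.4 and 52.9 CPM in the sulodexide livers, against 23.5, 16.4 and 22.99 CPM in the vehicle livers and 818, 958 and 871 CPM in the control livers (log2 change 1.22, SE 0.24, adjusted p = 0.021), so that it remained far below the control level, and Notum, a Wnt inhibitor, rose (0.58, adjusted p = 0.026). The carriers Slc1a4 (-1.06, adjusted p = 0.026) and Slc13a3 (-0.88, adjusted p = 0.028) fell. Higher pericentral members numbered 1 without sulodexide library 3 or vehicle library 1 or 3, and lower ones 0 without any sulodexide library or vehicle library 1 or 3. For periportal genes higher members numbered 0 without sulodexide library 2 or vehicle library 1 or 3 and 1 without sulodexide library 3 or control library 2, and lower ones 0 without any sulodexide library or vehicle library 1 or 3. Of hepatocyte transcription factors and identity genes, 2 of 29 tested members rose (median log2 change 0.19): Foxa2 had 34.99, 26.9 and 23.8 CPM in the sulodexide livers, against 17.1, 14.7 and 14.6 CPM in the vehicle livers. Foxa2 had a log2 change of 0.88 (SE 0.16, adjusted p = 0.014). Cebpa had 249, 288 and 299 CPM in the sulodexide livers, against 181, 192 and 186 CPM in the vehicle livers. Cebpa had a log2 change of 0.58 (SE 0.12, adjusted p = 0.021). Alb was at 92044, 70152 and 79608 CPM in the sulodexide livers, against 67877, 75749 and 83409 CPM in the vehicle livers (log2 change 0.09, adjusted p = 0.82). Of the identity genes, higher members numbered 0 without vehicle library 3 and 1 without sulodexide library 2 or 3 or vehicle library 1. Leaving out 1 of the 9 libraries at a time kept 1 of these 11 calls in every fit (Tdo2). Lost calls numbered 1 without vehicle library 2 or control library 2, 5 without sulodexide library 1, 6 without sulodexide library 3, 8 without sulodexide library 2, 9 without vehicle library 1 and 10 without vehicle library 3, at adjusted p from 0.051 to 0.13.

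Lipid, sugar and iron genes had calls in both directions. Of cholesterol genes, 2 of 32 tested members fell (median log2 change -0.36): Mvd, of the mevalonate pathway, had 27.2, 26.6 and 19.5 CPM in the sulodexide livers, against 41.6, 63.7 and 40.98 CPM in the vehicle livers. Mvd had a log2 change of -0.996 (SE 0.19, adjusted p = 0.018). Insig1, a sterol sensor partner, had 188, 177 and 162 CPM in the sulodexide livers, against 284, 346 and 246 CPM in the vehicle livers. Insig1 had a log2 change of -0.73 (SE 0.15, adjusted p = 0.022). Of lipogenic genes, 2 of 40 tested members fell (median log2 change 0.06): the regulator Srebf1 (-0.88, adjusted p = 0.045) and Scd2, a desaturase of the fetal liver, at 223, 146 and 151 CPM in the sulodexide livers, against 448, 374 and 322 CPM in the vehicle livers and 7.92, 9.64 and 8.25 CPM in the control livers. Scd2 had a log2 change of -1.14 (SE 0.18, adjusted p = 0.0099). Vehicle livers held the highest Scd2 and the controls hardly any. Of fatty acid oxidation genes, 1 of 47 tested members rose (median log2 change 0.15), namely Slc27a2 (0.62, adjusted p = 0.016), a fatty acid importer. Of sugar genes, 2 of 45 tested members rose and 2 fell (median log2 change 0.02). G6pc, which releases glucose, had 305, 317 and 252 CPM in the sulodexide livers, against 376, 563 and 680.2 CPM in the vehicle livers and 954, 977 and 1342 CPM in the control livers. G6pc had a log2 change of -0.89 (SE 0.21, adjusted p = 0.041). Gys2, liver glycogen synthase, had 199, 166 and 182 CPM in the sulodexide livers, against 85.2, 118 and 131 CPM in the vehicle livers. Gys2 had a log2 change of 0.71 (SE 0.16, adjusted p = 0.028). Pfkfb1, whose exons overlap Apex2 on the other strand, had 36.2, 28.5 and 32.2 CPM in the sulodexide livers, against 15.2, 17.7 and 13.3 CPM in the vehicle livers. Pfkfb1 had a log2 change of 1.07 (SE 0.16, adjusted p = 0.0087). G6pc was thus farther from the control level with sulodexide, and Gys2 close to it. Txnip, a glucose-responsive gene in no list, fell and had 97.9, 49.9 and 55.1 CPM in the sulodexide livers, against 153, 197 and 175 CPM in the vehicle livers. Txnip had a log2 change of -1.37 (SE 0.24, adjusted p = 0.016). Of iron genes, 1 of 25 tested members rose and 2 fell (median log2 change -0.05): the carrier Slc39a14 (0.89, adjusted p = 0.028) rose, and Steap3 (-0.75, adjusted p = 0.035) and Id1, given above, fell. Lower cholesterol genes numbered 0 without sulodexide library 2 or 3, 1 without vehicle library 1 and 4 without sulodexide library 1. Lower lipogenic genes numbered 1 without sulodexide library 2 or 3, vehicle library 1 or 3 or control library 3, and higher fatty acid oxidation genes 0 without sulodexide library 2 or vehicle library 1 or 3 and 2 without vehicle library 2. Sugar genes that rose numbered 1 without sulodexide library 2 or 3 or vehicle library 1, and those that fell 0 without sulodexide library 2 or 3, vehicle library 3 or control library 1 or 2 and 1 without sulodexide library 1, vehicle library 1 or control library 3. Iron genes that rose numbered 0 without sulodexide library 1 or 2 or vehicle library 1 or 3, and those that fell 0 without sulodexide library 1 or 2 or vehicle library 1 or 3 and 1 without sulodexide library 3, vehicle library 2 or control library 1. With each of the 9 libraries left out in turn, 2 of the 11 calls named here held throughout (Scd2 and Pfkfb1). The number lost was 1 without control library 2 or 3, 2 without vehicle library 2 or control library 1, 5 without sulodexide library 1, 6 without vehicle library 1 or 3, 7 without sulodexide library 3 and 9 without sulodexide library 2, at adjusted p from 0.052 to 0.14.

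Among clock genes, 8 of 22 tested members rose (median log2 change 0.30), against 1.39% of all genes higher. The liver clock is a loop in which Arntl and Npas2 or Clock drive genes through the E-box, among them their own repressors and the outputs Dbp and Tef. Usp2, a clock-driven deubiquitinase, had 26.5, 27.6 and 23.6 CPM in the sulodexide livers, against 11.2, 10.4 and 11.1 CPM in the vehicle livers and 77.4, 55.5 and 61.1 CPM in the control livers. Usp2 had a log2 change of 1.25 (SE 0.14, adjusted p = 0.0053). Dbp, whose exons overlap Sphk2 on the other strand, had 43.8, 56.3 and 98.05 CPM in the sulodexide livers, against 24.1, 18.9 and 20.7 CPM in the vehicle livers and 68.2, 74.04 and 62.4 CPM in the control livers. Dbp had a log2 change of 1.63 (SE 0.26, adjusted p = 0.01). Sulodexide library 3 was the highest of its group, and the vehicle livers were the lowest of the 3 groups. Nr1d1, REV-ERB alpha, whose exons overlap Thra on the other strand, had 89.5, 95.96 and 90.5 CPM in the sulodexide livers, against 61.5, 55.1 and 50.7 CPM in the vehicle livers and 26.2, 25.3 and 25.8 CPM in the control livers (log2 change 0.72, SE 0.11, adjusted p = 0.0087), here above both other groups. Bhlhe41 (1.71, adjusted p = 0.012), Per2 (0.88, adjusted p = 0.025), Ciart (0.79, adjusted p = 0.037), Tef (0.75, adjusted p = 0.016) and Nr1d2 (0.60, adjusted p = 0.023) rose too. Arntl did not pass, at 32.2, 29.1 and 23.8 CPM in the sulodexide livers, against 24.2, 25.8 and 23.7 CPM in the vehicle livers and 5.23, 4.56 and 4.98 CPM in the control livers (log2 change 0.21, adjusted p = 0.43), nor did Npas2 at 6.45, 5.69 and 6.05 CPM in the sulodexide livers, against 7.04, 3.69 and 6.27 CPM in the vehicle livers and 0.0727, 0.258 and 0.163 CPM in the control livers (log2 change 0.10, adjusted p = 0.89). Both were higher in all 6 TAA livers than in any control liver. The hour of collection is not given in the sources used here. Higher members numbered 3 without sulodexide library 2 or vehicle library 3 and 4 without vehicle library 1. Of the 8 calls named here, 2 held in all 9 fits with 1 library left out (Usp2 and Nr1d1). Losses came to 1 without vehicle library 2 or control library 2, 2 without sulodexide library 1 or 3, 4 without vehicle library 1 and 5 without sulodexide library 2 or vehicle library 3, at adjusted p from 0.051 to 0.13.

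RefSeq (GRCm38.p6) gave a promoter for 7 of the 8 raised clock genes. The E-box CACGTG, which reads the same on both strands, was in the 250 bases before the start of 3 of them, Ciart, Bhlhe41 and Tef, against 5 of 18 promoters of the whole list (27.8%) and 8.4% of 10076 promoters of tested genes. The D-box TTATGTAA, the site of Dbp and Tef, was in 0 of the 7 on either strand, against 1 of 18 promoters of the list (5.56%) and 0.526% of all promoters. The promoters of Ciart (chr3:95882229-95882478, minus strand), Bhlhe41 (chr6:145865421-145865670, minus strand) and Tef (chr15:81802423-81802672, plus strand) are shown with the E-box in capitals, since they carry the element of the clock's positive arm. Ciart held 3 copies.
Ciart: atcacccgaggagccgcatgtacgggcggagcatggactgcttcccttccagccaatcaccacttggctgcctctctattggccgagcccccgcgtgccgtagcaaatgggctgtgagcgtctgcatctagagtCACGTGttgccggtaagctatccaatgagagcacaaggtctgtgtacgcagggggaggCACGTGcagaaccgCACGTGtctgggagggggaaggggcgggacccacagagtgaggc
Bhlhe41: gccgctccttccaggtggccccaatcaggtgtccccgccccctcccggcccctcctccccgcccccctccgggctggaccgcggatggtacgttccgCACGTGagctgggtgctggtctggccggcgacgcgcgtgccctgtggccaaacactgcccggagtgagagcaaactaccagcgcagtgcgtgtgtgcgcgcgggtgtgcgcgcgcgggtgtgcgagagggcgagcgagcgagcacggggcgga
Tef: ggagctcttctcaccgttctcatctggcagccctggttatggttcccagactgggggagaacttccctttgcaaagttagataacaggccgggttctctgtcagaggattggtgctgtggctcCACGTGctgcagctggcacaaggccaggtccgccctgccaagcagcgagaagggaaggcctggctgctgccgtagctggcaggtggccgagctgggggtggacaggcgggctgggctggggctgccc

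Of cell cycle genes, 1 of 74 tested members rose and 11 fell (median log2 change -0.72). Cdc20, the activator of the anaphase complex, had 1.78, 4.93 and 3.03 CPM in the sulodexide livers, against 14.03, 9.46 and 8.24 CPM in the vehicle livers and 0.872, 0.344 and 0.735 CPM in the control livers (log2 change -1.70, SE 0.36, adjusted p = 0.025), but its exons overlap Elovl1, which is at a higher level on the other strand. Mki67, the proliferation antigen, had 1.89, 4.47 and 2.63 CPM in the sulodexide livers, against 10.1, 6.69 and 6.73 CPM in the vehicle livers and 1.16, 1.38 and 1.55 CPM in the control livers. Mki67 had a log2 change of -1.38 (SE 0.31, adjusted p = 0.03). Sulodexide library 2 was the highest of its group in both genes and did not reach the vehicle livers. Cdk1 (-1.16, adjusted p = 0.032), the mitotic kinase, Ccna2 (-1.39, adjusted p = 0.046), its cyclin partner, whose exons overlap Exosc9 at a higher level on the other strand, and Ube2c (-1.44, adjusted p = 0.048), a ligase of mitotic exit, fell, as did Racgap1 (-1.54, adjusted p = 0.026) of cytokinesis. Of replication genes Mcm6, a helicase subunit, had 6.16, 7.31 and 7.502 CPM in the sulodexide livers, against 16.7, 10.8 and 14.6 CPM in the vehicle livers (log2 change -1.01, SE 0.19, adjusted p = 0.016), while Mcm10 (ENSMUSG00000026669, chr2:4989714-5012791), a replication initiation factor, had 51.3, 78.7 and 47.4 CPM in the sulodexide livers, against 8.98, 17.6 and 12.8 CPM in the vehicle livers and 163, 147 and 187 CPM in the control livers (log2 change 2.17, SE 0.26, adjusted p = 0.0053), the opposite direction. Ccnd1 did not pass, at 181, 110.3 and 94.2 CPM in the sulodexide livers, against 168, 106 and 118 CPM in the vehicle livers (log2 change -0.02, adjusted p = 0.97), and its direction turned in fits without sulodexide library 2 (0.08), sulodexide library 3 (0.16) or vehicle library 1 (0.20). Lower members numbered 0 without vehicle library 1 or 3, 1 without sulodexide library 1, 2 without sulodexide library 3, 4 without control library 1 and 5 without sulodexide library 2 or control library 2. In the 9 fits that each left out 1 library, 1 of these 8 calls held every time (Mcm10). Calls were lost as follows: 1 without vehicle library 2 or control library 3, 3 without control library 1 or 2, 4 without sulodexide library 2, 6 without sulodexide library 1 or 3 and 7 without vehicle library 1 or 3, at adjusted p from 0.051 to 0.16.

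The element CHR, searched as TTTGAA or TTCGAA on both strands, is known from promoters of late cell-cycle genes. RefSeq gave a promoter for 7 of the 11 lowered members, and 4 of these held it (Cdc20, Ube2c, Cdk1 and Mki67), against 15 of 59 promoters of the list (25.4%) and 12.4% of 10076 promoters of tested genes. CCAAT, on either strand, was in all 7, against 69.5% of the list's promoters and 36.4% of all. The promoters of Cdc20 (chr4:118437344-118437593, minus strand), Ube2c (chr2:164769679-164769928, plus strand), Cdk1 (chr10:69352913-69353162, minus strand) and Mki67 (chr7:135716380-135716629, minus strand) are shown because they hold the element, with CHR matches in capitals.
Cdc20: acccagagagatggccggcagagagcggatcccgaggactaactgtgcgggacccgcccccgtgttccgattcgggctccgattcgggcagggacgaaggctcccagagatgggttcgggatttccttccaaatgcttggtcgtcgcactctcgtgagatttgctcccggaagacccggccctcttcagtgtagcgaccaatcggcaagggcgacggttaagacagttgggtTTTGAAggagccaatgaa
Ube2c: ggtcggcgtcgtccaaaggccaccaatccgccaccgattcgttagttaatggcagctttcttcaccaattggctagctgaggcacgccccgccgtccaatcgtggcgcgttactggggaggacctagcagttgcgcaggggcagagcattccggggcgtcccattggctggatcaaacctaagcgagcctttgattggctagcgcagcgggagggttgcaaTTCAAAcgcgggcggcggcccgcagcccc
Cdk1: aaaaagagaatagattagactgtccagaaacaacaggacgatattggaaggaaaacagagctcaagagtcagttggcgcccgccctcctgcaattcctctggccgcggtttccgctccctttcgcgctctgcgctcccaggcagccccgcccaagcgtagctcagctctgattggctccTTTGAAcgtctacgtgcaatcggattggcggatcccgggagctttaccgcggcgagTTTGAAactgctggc
Mki67: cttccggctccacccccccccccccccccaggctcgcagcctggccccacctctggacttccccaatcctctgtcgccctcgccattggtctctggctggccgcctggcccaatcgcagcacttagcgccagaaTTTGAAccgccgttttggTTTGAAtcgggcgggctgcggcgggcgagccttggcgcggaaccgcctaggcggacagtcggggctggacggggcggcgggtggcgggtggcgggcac

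Among stress lists, NRF2 targets held the most calls. Of NRF2 targets, 10 of 63 tested members fell (median log2 change -0.31). Osgin1, an oxidative stress-induced growth inhibitor, had 25.7, 58.8 and 38.9 CPM in the sulodexide livers, against 158, 187 and 231 CPM in the vehicle livers and 57.1, 28.1 and 44.5 CPM in the control livers. Osgin1 had a log2 change of -2.22 (SE 0.33, adjusted p = 0.011). Cbr3, a carbonyl reductase, had 35.6, 34.1 and 30.1 CPM in the sulodexide livers, against 118, 68.5 and 61.1 CPM in the vehicle livers and 0.654, 0.344 and 0.816 CPM in the control livers (log2 change -1.31, SE 0.24, adjusted p = 0.016), so that it stayed far above the control livers. The pump Abcc1 (-1.45, adjusted p = 0.018) fell with Abcc4, given above. Lower members numbered 2 without sulodexide library 2 or vehicle library 1, 3 without sulodexide library 3 or vehicle library 3, 4 without sulodexide library 1, 6 without any control library and 20 without vehicle library 2. Of p53 targets, 1 of 29 tested members fell (median log2 change -0.03), the stress sensor Sesn2 (-0.54, adjusted p = 0.037). Cdkn1a, the p53-induced cyclin kinase inhibitor p21, had 308, 230.4 and 214 CPM in the sulodexide livers, against 235, 274 and 261 CPM in the vehicle livers and 7.85, 2.32 and 3.67 CPM in the control livers and did not pass (log2 change -0.03, adjusted p = 0.97); all 6 TAA livers were far above the controls, and its direction turned in fits without sulodexide library 2 (0.03), sulodexide library 3 (0.07) or vehicle library 2 (0.02). Of the unfolded protein and integrated stress response, 1 of 41 tested members rose and 2 fell (median log2 change 0.01). Xbp1 (ENSMUSG00000020484, chr11:5520659-5525893), its secretory transcription factor, also on the plasma cell list, had 369.8, 370.0 and 368 CPM in the sulodexide livers, against 195, 215 and 213 CPM in the vehicle livers and 326, 319.8 and 316 CPM in the control livers. Xbp1 had a log2 change of 0.83 (SE 0.10, adjusted p = 0.0053). Psat1, of serine synthesis, fell (-1.36, adjusted p = 0.047). Of heat shock genes, 1 of 20 tested members fell (median log2 change 0.14), the small chaperone Cryab (-1.55, adjusted p = 0.022). Of immediate early genes, 4 of 25 tested members fell (median log2 change -0.42): Egr2 (-2.13, adjusted p = 0.036), Maff (-1.34, adjusted p = 0.021), Dusp6 (-0.67, adjusted p = 0.021) and Jund (-0.63, adjusted p = 0.028); the number was 0 without sulodexide library 2 or 3, 1 without vehicle library 1 or 3 and 2 without sulodexide library 1. Tnfrsf12a, the injury receptor Fn14 and in no list, fell (-1.03, adjusted p = 0.032). Lower p53 targets numbered 0 without sulodexide library 1 or 2, any vehicle library or any control library, lower heat shock genes 0 without any sulodexide library or vehicle library 1 or 3, and lower genes of the unfolded protein list 0 without any sulodexide library, any vehicle library or control library 2 and 1 without control library 1. When libraries were left out singly, 1 of the 12 calls above held in all 9 fits (Xbp1). Those lost were 2 without control library 2 or 3, 4 without vehicle library 2 or control library 1, 6 without sulodexide library 1, 7 without vehicle library 3, 8 without vehicle library 1, 9 without sulodexide library 2 and 11 without sulodexide library 3, at adjusted p from 0.05 to 0.18.

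Of male-biased genes, 2 of 26 tested members rose (median log2 change 1.22). Their number was 0 without sulodexide library 2 or vehicle library 1 or 3, 1 without sulodexide library 3 or control library 1 or 2, 4 without vehicle library 2 and 5 without sulodexide library 1. Mup2, a major urinary protein whose reads may be shared with its many copies, had 2.13, 2.03 and 2.24 CPM in the sulodexide livers, against 0.699, 1.04 and 0.813 CPM in the vehicle livers. Mup2 had a log2 change of 1.32 (SE 0.26, adjusted p = 0.018). C8b is given above. Mup7 had 465, 4282 and 2903 CPM in the sulodexide livers, against 95.3, 677 and 483 CPM in the vehicle livers and 8751, 11352 and 18044 CPM in the control livers and did not pass (log2 change 2.61, adjusted p = 0.18); sulodexide library 1 lay inside the vehicle range. For female-biased genes, 0 of 14 tested members passed edgeR's adjusted test (median log2 change -0.27), 1 higher and 1 lower had an unadjusted p below 0.05, DESeq2 called 0 higher and 1 lower, and limma on FPKM called 0 higher and 1 lower. Their summed CPM were 1486, 1137 and 1366 CPM in the sulodexide livers, against 1767, 1909 and 1609 CPM in the vehicle livers and 135, 161 and 106 CPM in the control livers. Both TAA groups lay well above the controls, and the sulodexide livers were below every vehicle liver. Of the growth hormone axis, 1 of 21 tested members rose and 1 fell (median log2 change -0.06): Igfals, given above, and Igfbp7, a matrix-bound binding protein whose exons overlap Polr2b on the other strand, at 58.6, 59.2 and 75.1 CPM in the sulodexide livers, against 189, 96.98 and 173 CPM in the vehicle livers. Igfbp7 had a log2 change of -1.25 (SE 0.22, adjusted p = 0.013). Growth hormone axis genes that rose numbered 0 without sulodexide library 2 or vehicle library 1 or 3 and 2 without sulodexide library 3, and those that fell 0 without sulodexide library 2 or vehicle library 3. Leaving out 1 of the 9 libraries at a time kept 0 of these 2 calls in every fit. Lost calls numbered 1 without vehicle library 1 and 2 without sulodexide library 2 or vehicle library 3, at adjusted p from 0.053 to 0.075.

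Genes of basic cell functions had few calls. For nuclear respiratory chain genes, 0 of 74 tested members passed edgeR's adjusted test (median log2 change 0.11), 5 higher and 0 lower had an unadjusted p below 0.05, DESeq2 called 1 higher and 0 lower, and limma on FPKM called 0 higher and 0 lower. For cytosolic ribosomal proteins, 0 of 77 tested members passed edgeR's adjusted test (median log2 change -0.10), 0 higher and 2 lower had an unadjusted p below 0.05, DESeq2 called 0 higher and 0 lower, and limma on FPKM called 0 higher and 1 lower. Among mitochondrially encoded genes, 1 of 13 tested members rose (median log2 change 0.46), namely mt-Cytb at 6641, 7743 and 8070.3 CPM in the sulodexide livers, against 5051, 4099 and 4898 CPM in the vehicle livers. mt-Cytb had a log2 change of 0.68 (SE 0.16, adjusted p = 0.038). Of the 13 members 0 had a log2 change below 0, against 48.1% of all genes tested. Their summed CPM were 60257, 61753 and 77653 CPM in the sulodexide livers, against 55090, 42288 and 55282 CPM in the vehicle livers and 115314, 117536 and 132962 CPM in the control livers. Of lysosomal genes, 1 of 31 tested members fell (median log2 change -0.20), namely Gaa (-0.48, adjusted p = 0.041), the acid glucosidase. Of retinoid genes, 2 of 23 tested members fell (median log2 change 0.06), among them the receptor Rarb (-0.74, adjusted p = 0.041), whose exons overlap Top2b on the other strand. Higher mitochondrially encoded genes numbered 0 without sulodexide library 2 or 3, any vehicle library or control library 2. Lower lysosomal genes numbered 0 without sulodexide library 1 or 3, vehicle library 1 or 3 or any control library and 2 without vehicle library 2, and lower retinoid genes 1 without sulodexide library 2 or 3, any vehicle library or any control library. With each of the 9 libraries left out in turn, 0 of the 3 calls named here held throughout. The number lost was 2 without sulodexide library 1 or control library 1 or 3 and 3 without sulodexide library 2 or 3, any vehicle library or control library 2, at adjusted p from 0.057 to 0.13.

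The lists held 66 of the 191 raised genes and 143 of the 467 lowered genes, so that 125 and 324 lay in no list. By symbol, the Col genes had 15 of 31 tested members lower (48.39% called, median log2 change -1.23), and the Slc genes, carriers of many kinds, had 9 of 244 higher and 12 lower. Of 12813 protein-coding genes tested, 175 rose and 461 fell. Of 140 antisense transcripts 3 rose, and of 147 long intergenic RNAs 4 rose and 3 fell.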

How the data were processed

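Liver RNA of 9 libraries in 3 groups was measured by sequencing of mRNA libraries. The deposited table gives whole-number counts per Ensembl gene and FPKM for each library, per the file headers. The submitters' processing notes name HISAT2 2.0.4, StringTie 1.3.0, mm10 and GRCm38.p4, without role or order. Which program counted the reads, and with which strand setting, is not given in the sources used here. FPKM as deposited by the authors served in an alternative only.

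Counts were analysed in R 4.3.3 with edgeR 4.0.16. Genes kept by filterByExpr (minimum count 10 in 3 libraries) were tested, and held at least 99.9% of each library's counts. Libraries were scaled by TMM, all 9 entered a model of group means without a block, and sulodexide minus vehicle was tested by the robust quasi-likelihood F-test with Benjamini-Hochberg adjustment over all genes tested (threshold 0.05). The common dispersion was 0.0409, with 6 residual degrees of freedom. CPM are TMM-scaled and values are mean or single libraries, n = 3 per group. The counts of any 2 libraries of a group differed far beyond sampling noise. On simulated counts of 13564 genes for this comparison, 18%, 64%, 92% and 100% of genes changed 1.5-, 2-, 4- and 8-fold were recovered, and 6.16% of calls were false. The counts were drawn once, the changed genes (50 for each fold) were above 2 CPM over the TAA libraries, and no library was made to stand apart. The rates may therefore not hold for genes of lower level or for libraries that stand apart.

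The members, the 58 gene lists and the rule for named genes were chosen with earlier results of these data known. The rule took the 15 largest rises and falls (at least 5 CPM in the higher group, libraries not overlapping), the 10 smallest p in each direction, up to 4 called members by p of each list and direction, and 15 fixed genes. A further 30 genes were chosen after their values were seen: Arntl, Ccna2, Cdk1, Ciart, Clec4f, Csrp1, Flna, Gpnmb, Il15ra, Il1rap, Itgb6, Krt18, Krt7, Krt8, Lifr, Mup7, Ngp, Npas2, Nr1d2, Nr1h4, Pdgfc, Pdgfra, Pdgfrb, Per2, Socs3, Tef, Tgfb2, Tnfrsf12a, Txnip and Ube2c. Exon overlaps came from GENCODE M21, and promoters from RefSeq (GRCm38.p6). Alternatives used limma 3.58.1 and DESeq2 1.42.0. Gene coordinates are those of the deposited table. Reads, splicing and transcripts were not analysed here. Some genes are not reported here.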

Additional observations from a re-analysis of the deposited data

How the results depend on the processing

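The counts of 191 genes higher and 467 lower moved with the settings. DESeq2's size factors gave 176 higher and 471 lower. Total counts in place of TMM, which moved the median of all genes by -0.14 on the log2 scale, gave 91 higher and 693 lower, so that 88.4% of calls were lower against 71.0%. Testing all genes gave 200 and 497, and at least 1 CPM in 6 libraries gave 131 and 311. DESeq2 called 366 and 726. A fit of the 6 TAA libraries called 84 and 302, and with total counts, chosen after seeing the data, 49 and 491. Of 176 called genes looked at singly, 48 lost the call in the fit of 6 TAA libraries, 44 in its total-count form, 18 with total counts, 21 and 19 with limma at pseudocounts 1 and 0.1, 16 with the block, 9 with all genes tested, 13 of 156 under the 1 CPM filter, and 0 with DESeq2 or its size factors. Of those that held with every library left out, F9 (adjusted p = 0.053), Nr1d1 (0.059) and Tdo2 (0.0503) lost the call in the total-count fit of 6 TAA libraries. Limma on FPKM called 90 and 870 with a pseudocount of 1, and 93 and 714 with 0.1. With 1 library left out, 44 to 189 genes were higher and 95 to 670 lower; leaving out control libraries was added after seeing the data. A fit with the replicate number as a block called 199 higher and 450 lower. The labels do not say that the numbers pair the libraries. Same-numbered libraries' deviations correlated at -0.03, 0.02 and 0.14, and 1 of 3 sulodexide libraries correlated best with its own number. With 3 libraries per group these values cannot exclude a pairing. Direction turned only in genes that did not pass. Alb was at -0.045 with total counts, -0.052 with limma at either pseudocount, -0.045 with 6 TAA libraries and total counts, and -0.012 to 0.19 with 1 library left out. Npas2 was at -0.047 with total counts, -0.0085 with limma and pseudocount 1, -0.047 with 6 TAA libraries and total counts, and -0.13 to 0.28 with 1 library left out. Left-out libraries gave -0.35 to 0.20 for Ccnd1 and -0.21 to 0.073 for Cdkn1a. The cause of these shifts was not tested. Genes of few counts limit the precision of the larger falls.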

Other observations

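Further lists are given beside the background of 3.41% of genes lower and 1.39% higher. Of apolipoprotein and lipoprotein genes, 1 of 30 tested members rose (median log2 change 0.18), and the number was 0 without sulodexide library 2 or vehicle library 1 or 3 and 2 without sulodexide library 1. In the Notch list, which directs duct cell fate, 1 of 15 tested members fell (median log2 change -0.41), the member being Sox9, and the number was 3 without vehicle library 2, against 0 without vehicle library 3 or sulodexide library 2 or 3. Of B and plasma cell genes, 1 of 15 tested members rose (median log2 change -0.65), the member being Xbp1, which hepatocytes also express. Of tight and gap junction genes, 3 of 21 tested members fell (median log2 change -0.15), namely Cldn4, Cldn7 and Cdh1. Cdh1 is also on the periportal list. The number of lower junction genes was 1 without sulodexide library 3. The summed CPM of the oncofetal list were 759, 594 and 629 CPM in the sulodexide livers, against 1507, 1073 and 1179 CPM in the vehicle livers and 206, 215 and 220.1 CPM in the control livers, so that the sulodexide livers lay between the other groups without overlap.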
